A study of Oryzias latipes with 27 samples.

Results

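The gene star, which encodes the steroidogenic acute regulatory protein, was followed through the medaka gonad together with lhcgr, the gene of the luteinizing hormone receptor, and fshr, that of the follicle-stimulating hormone receptor. The members were chosen by name, as the genes listed under the symbols star, lhcgr and fshr, and are 3 of the 26099 genes in the deposited tables. The study addressed how microRNAs and their targets act in sex differentiation of medaka (Oryzias latipes), where DMY is the Y-linked sex-determining gene, and the mRNA data used here are 27 gonad libraries in 9 groups of 3. MT ovaries came from genetic XY fish that carry a DMY knockout and develop as females, a line made with TALENs (designed nucleases) and kept by inheritance. WT ovaries came from wild-type XX females, and WT testes from wild-type XY males. Each kind of gonad was sampled on day 10, 30 and 120 after hatching (D10, D30, D120), and the labels call the 3 libraries of a group biological replicates. The D10 libraries are of trunk tissue that includes the early gonad, so a D10 value is not that of a gonad alone. DMY itself was not analysed here, so that genotypes were taken from the labels alone.

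StAR carries cholesterol to the inner mitochondrial membrane, where the side-chain cleavage enzyme turns it into pregnenolone, and this transfer limits the rate of acute steroid synthesis. Luteinizing hormone and follicle-stimulating hormone act through Gs-coupled receptors that raise cAMP, and cAMP in turn raises star transcription in steroidogenic cells of vertebrates. In fish gonads the receptors sit on somatic cells, Fshr mainly on granulosa and Sertoli cells and Lhcgr on theca, mature granulosa and Leydig cells. Steroidogenic cells of the interrenal gland, the fish counterpart of the adrenal cortex, also express star.

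All 3 genes are annotated by RefSeq (assembly ASM223467v1) as protein-coding and overlap no other annotated gene. The star gene lies on chromosome 9, from 18679999 to 18681561, and is 1563 bp long from end to end. Its neighbours LOC101160171 and elmod3 lie 3431 and 5125 bp away. The lhcgr gene spans 12047 bp of chromosome 15 (26042396 to 26054442), and fshr spans 13450 bp of chromosome 19 (12423184 to 12436633).

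Between 5551651 and 17586392 read pairs were assigned to genes per library (median 12200597). The number of assigned pairs was uneven where it matters for star: the D30 MT ovary libraries held 6301347, 6977685 and 10129588 pairs, and the D30 WT ovary libraries 15297992, 14855932 and 15066599. The paper lists nearly equal numbers of sequenced pairs for these libraries, and only somewhat fewer uniquely mapped pairs in MT ovaries. A smaller share of the mapped pairs was therefore assigned to genes in MT ovaries. That gap coincides with genotype, so that their parts in the star result cannot be told apart. Levels are given below as counts and as the deposited FPKM (fragments per kilobase of transcript, scaled to library size), the scale on which genes of different length can be set side by side. Fold changes and adjusted p-values come from edgeR's quasi-likelihood test on the counts, with Benjamini-Hochberg adjustment over all genes tested. A gene was called when the adjusted p was at most 0.05 and the log2 fold change at least 1 in size. In bulk tissue, fewer cells of a type and less RNA per cell cannot be told apart.

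The levels of star spanned the whole range from near absence to over 20 FPKM. At D10 the gene stood at 15.4, 33.3 and 22.9 FPKM in MT ovary libraries, at 20.8, 10.8 and 14.5 FPKM in WT ovary libraries and at 7.59, 6.61 and 1.60 FPKM in WT testis libraries. At D30 it stood at 0, 0.160 and 0.110 FPKM in MT ovaries, at 0.874, 1.35 and 1.26 FPKM in WT ovaries and at 21.2, 26.1 and 22.7 FPKM in WT testes. At D120 it stood at 9.09, 13.3 and 9.95 FPKM in MT ovaries, at 11.6, 8.03 and 9.79 FPKM in WT ovaries and at 5.45, 4.10 and 4.15 FPKM in WT testes. The D30 groups did not overlap, MT ovaries being lowest and testes highest, whereas at D120 both kinds of ovary overlapped with each other and lay above every testis library.

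**Figure D1:**
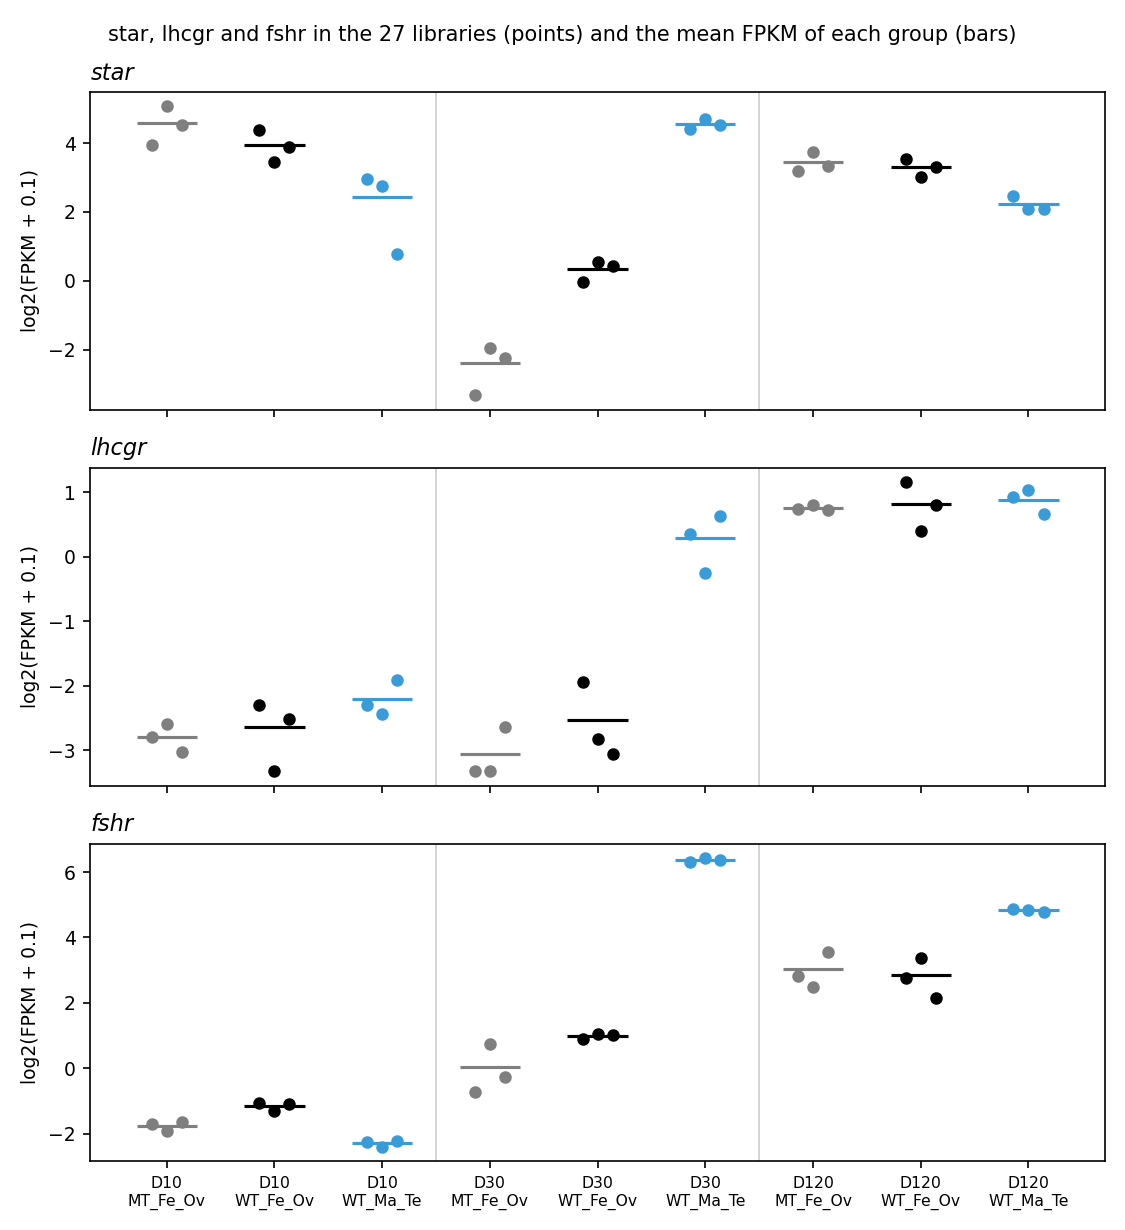
Level of star, lhcgr and fshr (1 panel each) in every library, as log2(FPKM + 0.1), in MT ovaries, WT ovaries and WT testes at D10, D30 and D120; points are libraries and bars the mean FPKM of 3 libraries. The D30 MT ovaries hold the lowest star level (mean 0.0898 FPKM) of the 9 groups, and the D30 testes the highest fshr level (mean 82.8 FPKM).

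Ordered by mean level, star was highest in D10 MT ovaries (23.9 ± 8.97 FPKM; SD, n = 3 here and below) and D30 testes (23.3 ± 2.48 FPKM), whose libraries overlapped. D10 WT ovaries (15.4 ± 5.07 FPKM), D120 MT ovaries (10.8 ± 2.21 FPKM) and D120 WT ovaries (9.79 ± 1.76 FPKM) followed, each overlapping with the next. Testes at D10 (5.27 ± 3.21 FPKM) and at D120 (4.57 ± 0.765 FPKM) overlapped in their turn. D30 WT ovaries (1.16 ± 0.252 FPKM) and D30 MT ovaries (0.0898 ± 0.0817 FPKM) closed the order, each set apart from its neighbours by more than the larger SD. The D10 levels are those of trunk tissue that includes the gonad, so the D10 ranks are not those of gonads alone.

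The lowest levels of star were those of the D30 ovaries, and there the genotypes differed. The 3 MT ovary libraries held 0, 1 and 1 star read pairs, against 12, 18 and 17 in the WT ovary libraries. Every MT library lay below every WT library. Given the depth of each MT library and the level in WT ovaries, 6.23, 7.25 and 9.86 pairs would have been counted where 0, 1 and 1 were. Summed over the libraries and scaled, the MT level was 0.0857 times the WT level, with an exact 95% interval from 0.0101 to 0.327 that rests on 2 against 47 pairs. Such intervals cover counting error only.

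In edgeR, star was lower in D30 MT than in D30 WT ovaries, with a fitted log2 fold change of -3.40 ± 0.65 (approximate SE; adjusted p = 0.0385, edgeR), and was the 1 gene of the 3 that was called. The approximate SEs of fold changes, here and below, were worked back from the test statistic. For star and lhcgr in pairwise comparisons of D30 MT ovaries they were 0.50 to 1.25, and those of DESeq2 were larger (1.05 to 1.99). Of all 23842 genes tested, 401 were called in this comparison (1.68%), 191 higher and 210 lower in MT ovaries. The call depended on the libraries in the fit. Without MT replicate 1 the fitted log2 fold change was -3.00 (adjusted p = 0.0816, edgeR), and without MT replicate 3 it was -3.58 (adjusted p = 0.0567). Without WT replicate 1, 2 or 3 it was -3.53, -3.26 and -3.32 (adjusted p = 0.159, 0.207 and 0.240, edgeR), in fits that called 4, 2 and 0 genes in all. It was called without MT replicate 2 (-3.80, adjusted p = 0.0242), where 1078 genes were. The direction could not change in these fits, since every MT library lay below every WT library. DESeq2 gave a log2 fold change of -3.54 with a larger SE of 1.27 and an unadjusted p of 0.00531. It left the gene out of its adjustment (independent filtering on the mean count).

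Neither receptor gene was called between the D30 ovaries. Of lhcgr, MT ovaries held 0, 0 and 2 read pairs, against 8, 2 and 1 in WT ovaries. These counts overlap, and the summed level in MT ovaries was 0.366 times that in WT ovaries with an exact 95% interval from 0.0394 to 1.68, so that a difference was not detectable at this depth. Of fshr, MT ovaries held 10, 34 and 23 pairs (0.934 ± 0.557 FPKM), against 83, 91 and 91 pairs in WT ovaries (1.88 ± 0.123 FPKM).

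The 3 MT libraries were all below the WT libraries in fshr, MT replicate 2 the least so (1.56 FPKM, against 1.74 FPKM in the lowest WT library). The log2 fold change of fshr was -0.97 ± 0.38 (adjusted p = 0.213, edgeR), and without MT replicate 2 it was -1.46 and called (adjusted p = 0.0133).

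**Figure D2:**
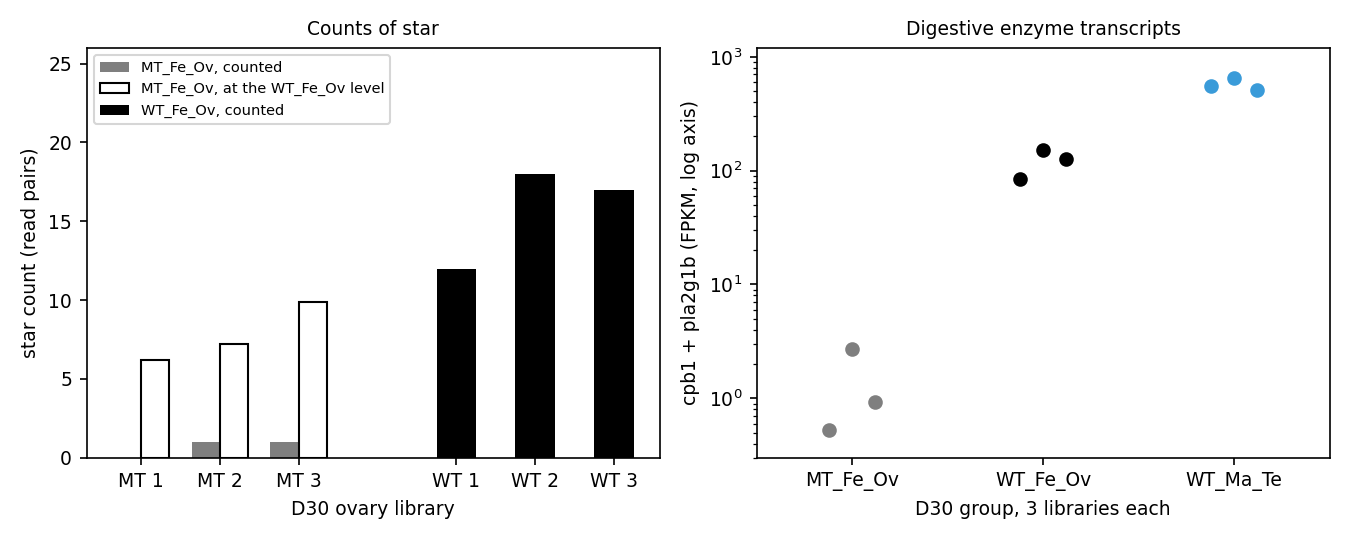
D30 gonads. Left, star read pairs counted in the 3 MT and 3 WT ovary libraries (filled bars) with the number expected in each MT library at the WT level (open bars); right, summed FPKM of the pancreatic enzyme genes cpb1 and pla2g1b per library on a log axis. Counts of 0, 1 and 1 stand against expected 6.23, 7.25 and 9.86. The pancreatic genes were lowest in MT ovaries and highest in testes, and the part of pancreatic tissue in the star result was not tested.

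Markers of other cells also differed between these ovaries. The exocrine pancreas genes cpb1 and pla2g1b, both digestive enzymes, summed to 0.529, 2.73 and 0.936 FPKM in MT ovaries, to 83.7, 152 and 126 FPKM in WT ovaries and to 507 to 656 FPKM in WT testes. Both were lower in MT than in WT ovaries (log2 fold change -6.63 for cpb1 and -5.23 for pla2g1b, adjusted p = 0.0042 and 0.0123, edgeR). None of 10 markers of somatic gonad cells was called by edgeR or DESeq2 (1 had an unadjusted p under 0.05), and none of the 10 was at 0. Their sum was 54.0, 195 and 64.6 FPKM in the MT ovary libraries and 99.8, 131 and 116 FPKM in the WT ovary libraries. MT replicates 1 and 3 thus lay below every WT library, and MT replicate 2 above every one. The 6 genes of the oocyte list summed to 1734 to 2191 FPKM in MT ovaries and 1787 to 1843 FPKM in WT ovaries. They summed to 581 to 628 FPKM in D30 testes, so that the list is not particular to oocytes. Between the ovaries none of the 6 genes was called by edgeR or DESeq2, and 3 had an unadjusted p under 0.05, with log2 fold changes of 0.60 for ddx4, 0.50 for dazl and -0.77 for nobox. Of all 23842 genes tested, 4705 had an unadjusted p under 0.05.

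The 7 male germ cell genes summed to 3.37 to 5.53 FPKM in MT ovaries and 6.22 to 7.40 FPKM in WT ovaries. None was called by edgeR (3 had an unadjusted p under 0.05, as had 4705 of all 23842 genes), and DESeq2 called spata18 lower in MT ovaries. The list is mixed: against D30 testes DESeq2 called 5 of its genes lower and 1 higher in either kind of ovary. The muscle gene acta1 had 1, 7 and 0 pairs in MT ovaries, against 67, 15 and 44 in WT ovaries (log2 fold change -2.88, adjusted p = 0.154, edgeR). The 4 interrenal markers (mrap2 and the chromaffin genes th, dbh and pnmt) summed to 0.253 to 1.12 FPKM in MT ovaries, with dbh and pnmt at 0, and to 0.543 to 1.05 FPKM in WT ovaries, with pnmt at 0. The list holds no marker specific to the steroid-making interrenal cells. The part of pancreatic or other tissue in the star result was not tested.

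The pathway around star was surveyed between the D30 ovaries in 5 lists. The hormone and receptor list holds glycoprotein hormone genes, tshr and the related leucine-rich repeat receptor genes lgr4, lgr5, lgr6, rxfp1 and rxfp2. Of 9 genes upstream or at the first step of steroid synthesis, 11 steroidogenic enzymes, 9 genes related to star and 10 hormone and receptor genes, none was called by edgeR. At an unadjusted p under 0.05 there were 4, 4, 2 and 2 of them in these 4 lists, where 4705 of all 23842 genes were. DESeq2 called 2 enzyme genes, cyp17 and hsd17b3, both lower in MT ovaries. The median log2 fold change was -0.12 for the upstream genes, -0.22 for the enzymes, 0.16 for the relatives and 0.09 for the hormone and receptor genes, against -0.04 over all genes tested. Of 25 genes of cAMP signalling 2 were lower in MT ovaries and none higher, where 1.68% of all genes were called. These were pde8b, a cAMP phosphodiesterase (log2 fold change -2.45 ± 0.45, adjusted p = 0.0342, edgeR), and adcy8, an adenylate cyclase (-1.41 ± 0.27, adjusted p = 0.0389).

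Read pairs in this paragraph are not scaled to depth, and each D30 MT library was shallower than each D30 WT ovary library. Those of pde8b were 53, 14 and 33 in MT ovaries, against 389, 380 and 397 in WT ovaries. The partners of star in the first steps were scarce in both ovaries. The side-chain cleavage gene cyp11a had 9, 4 and 5 pairs in MT ovaries, against 29, 28 and 31 in WT ovaries, and nr5a1, which encodes the SF-1 regulator of steroidogenic genes, had 2, 7 and 10 pairs, against 24, 34 and 24. Neither was called. Gonadal aromatase (LOC101174651), which makes estrogens, had 25, 431 and 99 pairs in MT ovaries, against 133, 222 and 140 in WT ovaries, and 3bhsd, the 3-beta-hydroxysteroid dehydrogenase gene, had 6, 54 and 10, against 31, 34 and 32. MT replicate 2 was the highest of the 3 MT libraries in both of these genes as it was in fshr.

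The genotype difference in star at D30 was set against that at the other stages in 1 fit of all 27 libraries. The log2 fold change of MT over WT ovaries at D30 minus that at D10 was -4.15 ± 0.89 (adjusted p = 0.0125, edgeR), in a test that called 1 of the 3 genes and 1.98% of all genes. The same difference taken against D120 was -3.57 ± 0.91 with an adjusted p of 0.0568 (edgeR), which misses the threshold, and the same test called 0.836% of all genes. Both contrasts rest at D30 on 2 star read pairs in MT ovaries, whose libraries were shallower than those of WT ovaries. The D10 libraries held tissue from outside the gonad. The interactions of lhcgr were -1.05 ± 1.35 against D10 and -1.34 ± 1.11 against D120 (adjusted p = 0.787 and 0.727, edgeR). Those of fshr were -0.22 ± 0.56 and -1.14 ± 0.40 (adjusted p = 0.955 and 0.217), and the second was called when D30 MT replicate 2 (-1.65, adjusted p = 0.0420, edgeR) or D120 WT ovary replicate 2 (-1.71, adjusted p = 0.0375) was left out.

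The LH receptor gene lhcgr had a simpler pattern. It was at the limit of counting in all D10 groups, where no library held more than 4 read pairs and the 3 libraries summed to 6 in MT ovaries, 7 in WT ovaries and 9 in testes. At D30 it remained there in both kinds of ovary (at most 0.0606 FPKM in MT and 0.160 FPKM in WT libraries), while the testis libraries held 68, 38 and 81 pairs, or 1.19, 0.743 and 1.46 FPKM. At D120 all gonads held it, at 1.57, 1.65 and 1.56 FPKM in MT ovaries, 2.13, 1.22 and 1.65 FPKM in WT ovaries and 1.80, 1.95 and 1.49 FPKM in testes. The 3 groups of D120 overlapped with each other, and the D30 testes (1.13 ± 0.360 FPKM) came next below them.

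The FSH receptor gene fshr was the most abundant of the members in D30 and D120 testes. It averaged 0.197 FPKM in MT ovaries, 0.352 FPKM in WT ovaries and 0.104 FPKM in testes at D10, with 2 to 14 read pairs per library. At D30 the testis libraries held 79.6, 85.9 and 82.8 FPKM, and no ovary library held more than 1.97 FPKM. At D120 fshr stood at 6.94, 5.50 and 11.6 FPKM in MT ovaries, at 6.66, 10.4 and 4.38 FPKM in WT ovaries and at 29.2, 28.7 and 27.2 FPKM in testes. D30 testes were thus the highest group and D120 testes the next, and D120 MT and WT ovaries overlapped. The D30 ovary groups and the D10 groups lay below the D120 ovaries without overlap.

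Between the receptors, fshr exceeded lhcgr in every library at D30 and D120 in which lhcgr had more than 3 read pairs. The ratio of their FPKM was 3.33 to 7.44 in D120 MT ovaries, 2.66 to 8.48 in D120 WT ovaries and 14.7 to 18.3 in D120 testes, so that both kinds of ovary lay below the testes. In D30 testes it was 56.9 to 116.

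At D30 all 3 genes were lower in ovaries than in testes. In WT ovaries against testes the log2 fold change was -3.37 ± 0.21 for star, -2.94 ± 0.51 for lhcgr and -4.50 ± 0.10 for fshr (adjusted p = 1.4e-11, 3.2e-05 and 2.3e-18, edgeR), so that 3 of 3 genes were called where 57.7% of all genes were. In MT ovaries against testes 3 of 3 were called where 52.7% of all genes were, with log2 fold changes of -6.96 ± 0.50, -4.47 ± 0.78 and -5.61 ± 0.32 (adjusted p = 5.2e-06, 0.000941 and 1.5e-06). By summed counts, star in MT ovaries was 0.00807 times its level in testes (exact 95% interval 0.000976 to 0.0292). Both comparisons share the testis libraries. By the paper's read and base totals, the D30 testis libraries had shorter reads than all others. This coincides with the group, and its part in these differences was not tested.

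The size of these differences depended on scaling and, for lhcgr, on single libraries with a few pairs. Over all genes the median log2 fold change at D30 was -0.56 in WT ovaries and -0.75 in MT ovaries against testes with TMM factors, and -1.50 and -1.56 with library totals alone, under which star stood at -4.32 and -7.78, lhcgr at -3.88 and -5.30 and fshr at -5.46 and -6.47. Without D30 WT ovary replicate 1, which held 8 of the 11 lhcgr pairs of its group, the log2 fold change of lhcgr was -4.19. Without D30 MT replicate 3, which held both pairs of its group, no pair was left in the MT ovaries.

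The testes of D30 also stood apart in cell type markers. Somatic gonad markers summed to 54.0 to 195 FPKM in MT ovaries, 99.8 to 131 FPKM in WT ovaries and 2311 to 2517 FPKM in testes. Of these 10 genes 8 were lower and 1 higher in MT ovaries than in testes, where 52.7% of all genes were called. In WT ovaries 9 were lower and 1 higher than in testes, where 57.7% of all genes were called. The 4 interrenal markers summed to 0.253 to 1.12 FPKM in MT ovaries and 0.543 to 1.05 FPKM in WT ovaries, against 8.53 to 8.79 FPKM in testes, of which the 3 chromaffin genes made up 6.67 to 7.45 FPKM and where none was at 0. The part of either in the member genes was not tested.

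**Figure D3:**
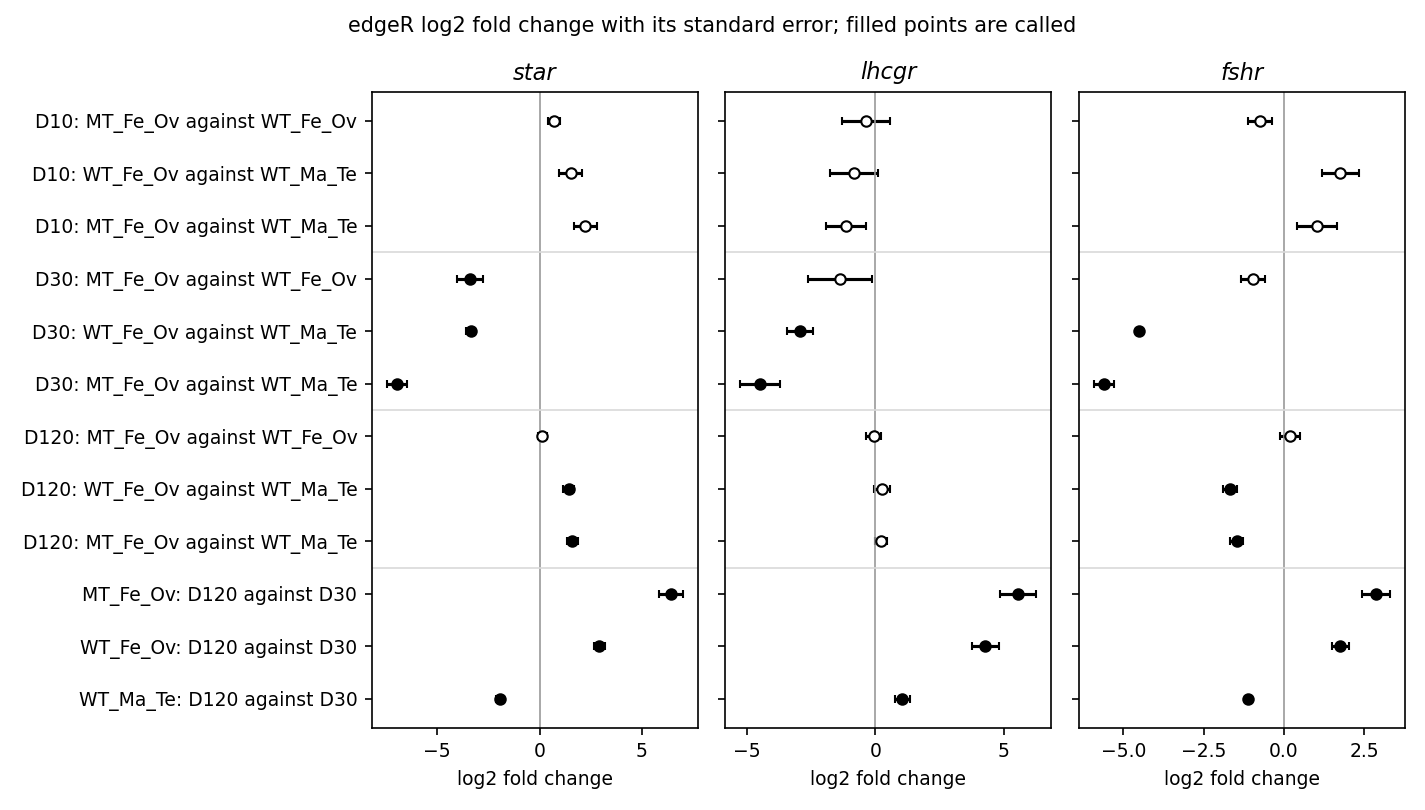
Log2 fold change (edgeR, bars 1 approximate SE) of star, lhcgr and fshr, 1 panel each, in 9 comparisons within a stage and 3 of D120 against D30; filled points were called. All 3 genes lie far below 0 in D30 ovaries against testes, while at D120 star lies above 0 (1.60 in MT and 1.42 in WT ovaries), lhcgr near 0 and fshr below it. For star and lhcgr in D30 MT ovaries the SEs of DESeq2 were larger than these bars.

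Genes of the steroid pathway were called in both directions between D30 ovaries and testes, in shares near or above those of all genes (57.7% called for WT and 52.7% for MT ovaries). In WT ovaries against testes, 2 of the 9 upstream genes were higher and 4 lower, and 3 of the 11 enzymes were higher and 4 lower (list medians -0.76 and -0.23, against -0.56 over all genes). In MT ovaries against testes the counts were 1 higher and 5 lower upstream, and 3 higher and 5 lower among the enzymes (medians -1.20 and -0.59, against -0.75). Genes next to star in the pathway went both ways. In WT ovaries against testes DESeq2 called fdxr, the ferredoxin reductase gene, and vdac1, an outer mitochondrial membrane channel gene, higher, whereas cyp11a and nr5a1 were lower in both kinds of ovary. The side-chain cleavage gene cyp11a averaged 0.398 ± 0.248 FPKM in MT ovaries and 0.930 ± 0.046 FPKM in WT ovaries, against 32.0 ± 3.22 FPKM in testes (log2 fold change -5.53 in MT and -4.15 in WT ovaries). The regulator nr5a1 averaged 0.359 ± 0.182 FPKM in MT and 0.847 ± 0.191 FPKM in WT ovaries, against 17.6 ± 1.49 FPKM in testes (-4.68 and -3.42).

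Its paralog nr5a2 was lower too (-3.16 in MT and -3.14 in WT ovaries), as was tspo, a cholesterol-binding protein of the outer mitochondrial membrane (-1.20 and -1.50). The androgen-side enzymes cyp17 (17-alpha-hydroxylase and 17,20-lyase) and cyp11b (11-beta-hydroxylase, needed for 11-ketotestosterone) were lower in ovaries. The level of cyp17 was 0.673 ± 0.551 FPKM in MT and 1.97 ± 0.380 FPKM in WT ovaries, against 126 ± 7.84 FPKM in testes, and that of cyp11b was 0 in all MT libraries and 0.101 ± 0.058 FPKM in WT ovaries, against 37.8 ± 2.07 FPKM in testes. The estrogen-side enzymes went the other way. Aromatase (LOC101174651) averaged 13.7 ± 17.3 FPKM in MT and 5.98 ± 1.88 FPKM in WT ovaries, against 0.0434 ± 0.048 FPKM in testes. The gene hsd17b1, whose enzyme makes estradiol, averaged 10.9 ± 2.83 FPKM in MT and 12.7 ± 2.53 FPKM in WT ovaries, against 0.118 ± 0.067 FPKM in testes. The genes of this paragraph, cyp11a and nr5a1 were all called in both comparisons by edgeR, and none changed sign with DESeq2's size factors or library totals.

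**Figure D4:**
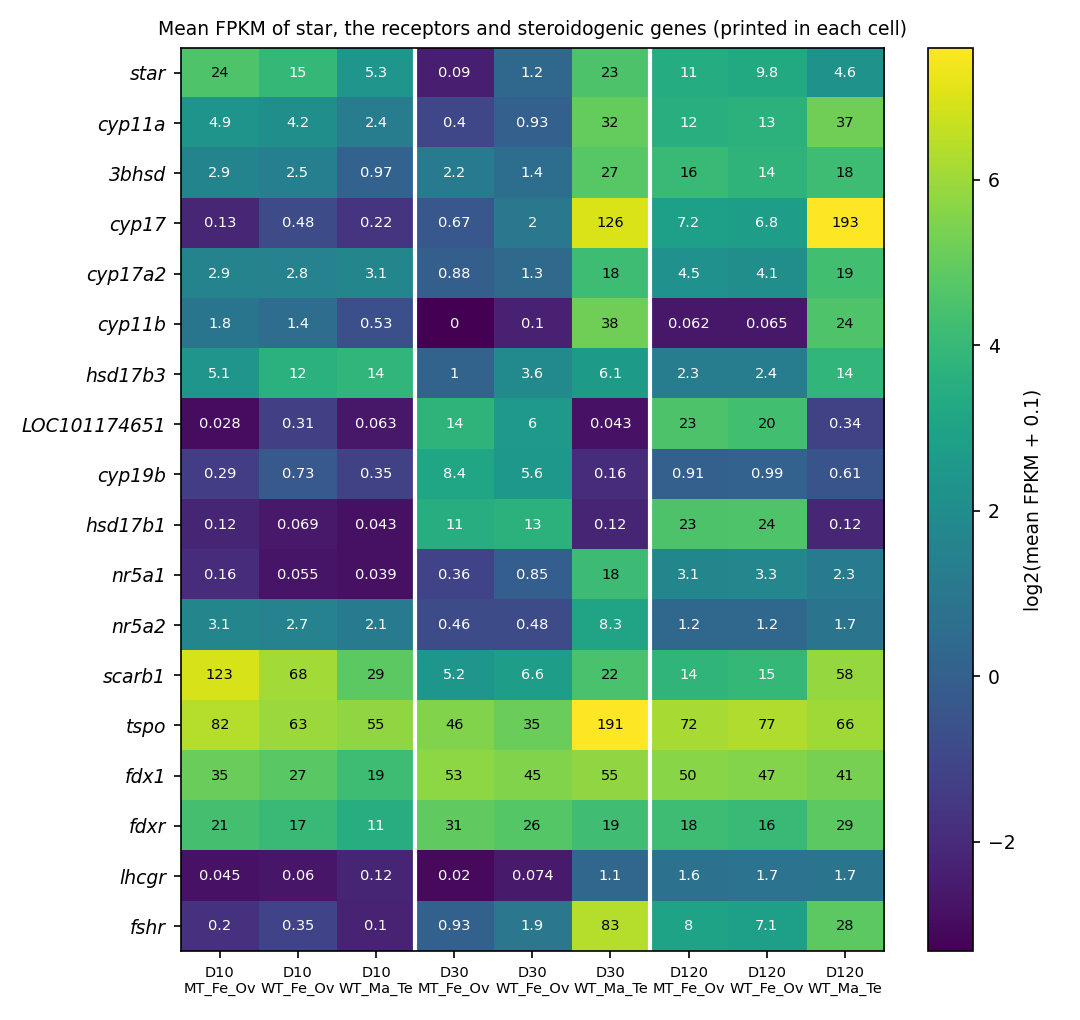
Mean FPKM (printed in each cell; colour, log2(mean FPKM + 0.1)) of star, the receptors and 15 genes of steroid synthesis in the 9 groups of 3 libraries. At D30 star, cyp11a, cyp17 and cyp11b are high in testes (23.3, 32.0, 126 and 37.8 FPKM) and low in ovaries, and LOC101174651 and hsd17b1 the reverse.

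Hormone genes and the signalling chain below the receptors also held calls, which are read against the 57.7% (WT) and 52.7% (MT ovaries) of all genes called. Of 11 hormone and receptor genes, which include the lgr and rxfp genes, 1 was higher and 7 lower in WT ovaries, and none higher and 7 lower in MT ovaries, than in D30 testes (medians -3.24 and -3.74). Among them fshb, the FSH beta subunit gene, averaged 1.10 FPKM in MT and 0.422 FPKM in WT ovaries, against 35.3 FPKM in testes (log2 fold change -4.24 and -5.41). The common alpha subunit gene cga (-3.77 and -3.69) and the receptor genes lgr6 (-6.68 and -5.59) and rxfp2 (-2.27 and -3.85) were lower too, lgr6 being a receptor of R-spondins and rxfp2 of insulin-like peptide 3 in mammals. Of 25 cAMP genes, 6 were higher and 9 lower in WT ovaries and 3 higher and 10 lower in MT ovaries, shares close to those of all genes. The protein kinase A subunit gene prkar2b was lower (-4.47 in MT and -3.79 in WT ovaries), and akap1, whose product anchors protein kinase A at mitochondria and takes part in star translation in mammalian cells, was higher (3.01 and 3.31). Of 9 genes related to star (START-domain proteins and stard3nl), 4 were lower and none higher in WT ovaries and 4 lower and 2 higher in MT ovaries, with the largest difference in stard10 (-3.83 in MT and -3.67 in WT ovaries).

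At D120 the genotypes were close in all 3 genes. None of the 3 was called between MT and WT ovaries, where 0.104% of all genes were (25 of 24122), nor had any of them an unadjusted p under 0.05 or a call by DESeq2. The log2 fold changes of MT over WT ovaries were 0.14 ± 0.24 for star, -0.06 ± 0.28 for lhcgr and 0.18 ± 0.31 for fshr (adjusted p = 0.961, 0.993 and 0.961, edgeR). Of the 5 pathway lists edgeR called no gene, with 0 of 9 upstream genes, 1 of 11 enzymes, 1 of 9 genes related to star, 1 of 11 hormone and receptor genes and 2 of 25 cAMP genes at an unadjusted p under 0.05. Of all 24122 genes, 1693 had such a p. DESeq2 called 1 gene of these lists, pde8b, higher in MT ovaries. The list medians lay between -0.07 and 0.07, against -0.02 over all genes.

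Against testes, the order of star at D120 was the opposite of that at D30. It was higher in ovaries, by a log2 fold change of 1.60 ± 0.25 in MT and 1.42 ± 0.28 in WT ovaries (adjusted p = 0.000189 and 0.000982, edgeR). With library totals alone the values were 1.23 and 1.10, a scaling that moved the median of all genes to -0.64 in MT and -0.60 in WT ovaries against testes, where TMM gave -0.30 and -0.31. At the same stage fshr was lower in ovaries, by -1.46 ± 0.20 in MT and -1.68 ± 0.23 in WT ovaries (adjusted p = 8.2e-05 and 6.1e-05). The difference in lhcgr was 0.24 ± 0.23 in MT and 0.26 ± 0.31 in WT ovaries (adjusted p = 0.385 and 0.473, edgeR) and turned to -0.13 and -0.07 with library totals. Thus 2 of 3 genes were called in each comparison, where 54.2% (MT ovaries) and 53.3% (WT ovaries) of all genes were.

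The change of the ovary-testis difference between D30 and D120 was tested in wild-type fish. It was -4.83 ± 0.59 for star, -3.22 ± 0.75 for lhcgr and -2.86 ± 0.37 for fshr on the log2 scale (adjusted p = 4.8e-07, 0.00122 and 9.4e-07, edgeR), so that 3 of 3 genes were called where 36.1% of all genes were. Ovaries stood lower relative to testes at D30 than at D120 in each. The shorter reads of the D30 testis libraries enter this contrast, and their part in it was not tested. Without D30 WT ovary replicate 1 the value of lhcgr was -4.45.

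Among the upstream genes, those called had the opposite order to star at D120. The genes cyp11a and scarb1, which encodes the receptor that takes up cholesterol from HDL, were lower in ovaries than in testes (log2 fold changes -1.31 and -1.66 in MT, -1.21 and -1.57 in WT ovaries), and they were the 2 of 9 upstream genes called. Mean cyp11a was 11.6 FPKM in MT and 12.8 FPKM in WT ovaries, against 37.1 FPKM in testes. Of 11 enzymes 2 were higher and 4 lower in either ovary, cyp11b (-8.13 and -8.12), hsd17b1 (7.76 and 7.76), LOC101174651 (6.44 and 6.13) and cyp17 (-4.38 and -4.50) the most. The regulator nr5a1 averaged 3.14 FPKM in MT and 3.27 FPKM in WT ovaries, against 2.26 FPKM in testes, and was not called. Of the hormone and receptor genes none was higher and 5 lower in MT ovaries, and 2 higher and 4 lower in WT ovaries. Of the cAMP genes 3 were higher and 12 lower in MT ovaries, and 4 higher and 11 lower in WT ovaries, and of the genes related to star 1 was higher and 3 lower in either. Of all genes 54.2% were called in MT and 53.3% in WT ovaries against testes, the background to these list counts. Male germ cell markers summed to 407 to 440 FPKM in D120 testes, against 81.4 to 91.1 FPKM in D30 testes, and somatic gonad markers to 460 to 525 FPKM, against 2311 to 2517 FPKM. Whether numbers of cells or RNA per cell changed cannot be told apart here. The part of these marker changes in the member genes was not tested.

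Between D30 and D120 star changed in opposite directions in ovaries and testes. In MT ovaries it reached 102, 144 and 109 read pairs at D120, against 0, 1 and 1 at D30, a summed level 95.7 times as high (exact 95% interval 26.3 to 793; fitted log2 fold change 6.43 ± 0.58, adjusted p = 0.000114, edgeR). In WT ovaries it had 124, 87 and 100 pairs at D120, against 12, 18 and 17 at D30 (log2 fold change 2.92 ± 0.28, adjusted p = 1.4e-05). In testes it fell to 80, 48 and 50 pairs at D120, against 335, 367 and 348 at D30 (-1.93 ± 0.20, adjusted p = 3.2e-06). No D120 group overlapped with its D30 group. D30 and D120 testis libraries also differed in read length.

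The gene fshr followed the same directions. Its log2 fold change at D120 against D30 was 2.87 ± 0.43 in MT ovaries, 1.76 ± 0.26 in WT ovaries and -1.13 ± 0.079 in testes (adjusted p = 0.00140, 0.000240 and 8.2e-08, edgeR). The gene lhcgr was higher at D120 in all 3 kinds of gonad. In MT ovaries its summed level was 51.5 times that at D30 (exact 95% interval 14.1 to 428) and in WT ovaries 19.7 times (10.8 to 40.2), with fitted log2 fold changes of 5.56 ± 0.71 and 4.28 ± 0.54 (adjusted p = 0.000615 and 7.5e-05). Without D30 WT ovary replicate 1 the fitted value for WT ovaries was 5.51, and without D30 MT replicate 3 no pair was left in the D30 MT ovaries.

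In testes the log2 fold change of lhcgr was 1.05 ± 0.29 (adjusted p = 0.00675, edgeR), close to the threshold of 1, with 96, 83 and 65 pairs at D120 against 68, 38 and 81 at D30. It was 0.85 without D30 testis replicate 2, 0.96 without D120 testis replicate 2 and 0.63 with library totals (which moved the median of all genes to -0.52, against -0.11 with TMM), and was called in none of these. All 3 genes were called in each kind of gonad, where 17.4% of all genes were in MT ovaries, 21.2% in WT ovaries and 39.1% in testes.

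Some of the genes that work with star were higher at D120 than at D30 in ovaries as well. Of the 9 upstream genes 3 were higher and none lower in MT ovaries, and 5 higher and none lower in WT ovaries (list medians 0.43 and 1.00, against 0.10 and 0.07 over all genes, of which 17.4% and 21.2% were called in either direction). They included cyp11a (log2 fold change 4.68 ± 0.42 in MT and 3.63 ± 0.22 in WT ovaries), nr5a1 (2.84 ± 0.49 and 1.79 ± 0.25) and scarb1 (1.22 ± 0.24 and 1.07 ± 0.17). Of the 11 enzymes, 3 were higher and 2 lower in MT ovaries and 4 higher and 1 lower in WT ovaries. Among these 3bhsd (2.71 in MT and 3.08 in WT ovaries), cyp17 (3.20 and 1.64) and cyp17a2, a second 17-alpha-hydroxylase (2.15 and 1.56), were higher, and cyp19b, the brain form of aromatase, was lower (-3.42 and -2.64). In testes nr5a1 (-2.55 ± 0.15), nr5a2 (-1.85 ± 0.21) and tspo (-1.12 ± 0.12) fell with star, while scarb1 (1.82 ± 0.09) and fdxr, the ferredoxin reductase gene (1.02 ± 0.11), were higher. The testis level of cyp11a was 37.1 FPKM at D120 and 32.0 FPKM at D30 and was not called.

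The hormone, cAMP and START lists are read against the 17.4% (MT ovaries), 21.2% (WT ovaries) and 39.1% (testes) of all genes called, and in most of these comparisons held calls in both directions. Of 11 hormone and receptor genes, 1 was higher and 1 lower at D120 in MT ovaries, 4 higher and 2 lower in WT ovaries and 1 higher and 4 lower in testes. Of 25 cAMP genes, 1 was higher and 3 lower in MT ovaries, none higher and 4 lower in WT ovaries and 5 higher and 4 lower in testes. Of the 9 genes related to star, none was higher and 1 lower in MT ovaries, 1 higher and 1 lower in WT ovaries and 1 higher and 2 lower in testes.

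At D10 none of the 3 genes was called in any comparison. For star the log2 fold change was 0.71 ± 0.31 in MT against WT ovaries, 2.24 ± 0.56 in MT ovaries against testes and 1.51 ± 0.56 in WT ovaries against testes (adjusted p = 0.264, 0.186 and 0.650, edgeR). All 3 had an unadjusted p under 0.05 (0.0492, 0.00339 and 0.0259), as did fshr in WT ovaries against testes (0.0144). In the same order of comparisons the log2 fold change was -0.35, -1.14 and -0.82 for lhcgr and -0.75, 1.04 and 1.75 for fshr (adjusted p = 0.316 to 0.866, edgeR). Of all genes 0.374% were called in MT against WT ovaries, 0.11% in MT ovaries against testes and 0.00814% in WT ovaries against testes. The ovary libraries all lay above the testis libraries in star, among which replicate 3 was lowest with 8 pairs and was also the shallowest of the 27 libraries.

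Other fits did call star at D10. In MT ovaries against testes DESeq2 gave 2.22 (adjusted p = 0.00718), a fit of all 27 libraries in edgeR gave 2.27 (adjusted p = 0.000715), and without testis replicate 1 it was 2.54 (adjusted p = 0.0383, edgeR). In WT ovaries against testes the fit of all 27 libraries gave 1.56 (adjusted p = 0.0339). By summed counts fshr in WT ovaries was 3.59 times its level in testes (exact 95% interval 1.65 to 8.90). Of the 5 pathway lists edgeR called no gene at D10. In MT against WT ovaries 4 of 9 upstream genes and 5 of 11 enzymes had an unadjusted p under 0.05, where 4638 of all 24605 genes had. In MT ovaries against testes 5 and 3 had, where 3990 of all 24536 genes had. In WT ovaries against testes 3 and 3 had, where 1870 of all 24562 genes had. DESeq2 called hsd17b3 lower in MT than in WT ovaries, and cyp11a, scarb1, 3bhsd and cyp11b higher in MT ovaries than in testes. These libraries held tissue from outside the gonad. Pancreatic genes summed to 1376 to 1904 FPKM in MT ovaries, 586 to 1094 FPKM in WT ovaries and 58.7 to 476 FPKM in testes, the chromaffin genes th, dbh and pnmt to 19.5 to 34.3 FPKM over the 9 libraries, and the muscle gene acta1 stood at 4172 to 9984 FPKM. The part of this tissue in the D10 star levels was not tested.

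The genes whose levels were most like those of star over the 27 libraries (Pearson's r of log2(FPKM + 1), 20560 genes that averaged 10 counts or more being compared) were gata6 (r = 0.950), LOC101175512 (0.932), atp5pb (0.929), gata4 (0.928) and LOC101168633 (0.928). The transcription factor gene gata6 averaged 36.4, 22.1 and 16.8 FPKM in MT ovaries, WT ovaries and testes at D10, 3.50, 4.30 and 50.2 FPKM at D30, and 18.4, 19.4 and 9.38 FPKM at D120. For lhcgr the 5 were LOC101166736 (0.959), mrgbp (0.956), atp6v1d (0.954), LOC101165499 (0.932) and fam133b (0.930). For fshr they were LOC111948850 (0.976), psma2 (0.974), LOC110016576 (0.972), LOC111946864 (0.971) and inha, the inhibin alpha gene (0.971). The libraries share stage, tissue and depth, and the choice of genes depended on the measure: with Spearman's rho 1 of the 5 of star was kept (gata6), and with the 18 D30 and D120 libraries alone none.

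The members themselves ran together only in part. Between star and lhcgr r was 0.30 over the 27 libraries and 0.79 over the 18 of D30 and D120, and between star and fshr 0.26 and 0.81. Between lhcgr and fshr it was 0.79 and 0.65. Over the 9 libraries of D10, where both receptors had few pairs, it was -0.60 for star and lhcgr, 0.49 for star and fshr and -0.34 for lhcgr and fshr. These correlations are descriptions over libraries that share stages and tissues.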

How the data were processed

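The 27 libraries were poly(A)-selected, prepared with a TruSeq kit and sequenced on an Illumina HiSeq machine. By the paper's read and base totals, the D30 testis libraries had shorter reads than all others. They also had the most sequenced pairs and the lowest alignment rates. Every comparison that includes D30 testes is thus also one between read lengths. The authors used fastp for trimming, STAR for alignment to the ASM223467v1 genome and featureCounts for read pairs over the exons of each gene, with no strand or multimapping option stated for the counting, and deposited 1 table of counts and 1 of FPKM, made from the counts with DESeq2's fpkm function. Replicate pairs differed beyond sampling noise (chi-square per degree of freedom at least 2.49), so each library was used as 1 replicate. The sources do not say how many fish make a library, so p-values measure the spread between these samples.

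Here counts were tested with edgeR 4.0.16 (TMM, quasi-likelihood, two-sided) for each pair of groups, on genes with at least 1 count in all, in 12 pairwise comparisons and 3 differences of differences (1 fit of 27 libraries). Calls needed an adjusted p of at most 0.05 and a log2 fold change of at least 1 in size. The code was tested on simulated data. In the alternatives DESeq2 1.42.0, limma 3.58.1 on log2(FPKM + 1) or log2(FPKM + 0.1), an adjusted p of 0.01, filterByExpr, a mean FPKM of at least 1, other scalings, 1 fit of all libraries, a replicate block and leaving out each library were tried. The exact 95% intervals for ratios of summed counts are binomial (Clopper-Pearson). A count of 3 stands for 0.171 CPM in the deepest library and 0.540 CPM in the shallowest, and for 0.196 to 0.476 CPM in the D30 ovaries.

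Members and gene lists were chosen with earlier results of these data known. By a fixed rule the text names the members, up to 4 called genes of each list with the largest log2 fold change, a few set pathway genes (mc2r not analysed here), and the 5 genes most like each member. The gene cyp11a, listed under that older symbol, was added to its list after the symbols were seen. Gene symbols were matched to RefSeq for 26090 of 26099 rows, and the other 9 had been turned into dates. Sequences are not shown.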

Additional observations from a re-analysis of the deposited data

Results flagged for a closer look

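The genotype difference in star was not the same at D30 and D10: the log2 fold change of MT over WT ovaries at D30 minus that at D10 was -4.15 (adjusted p = 0.0125, edgeR), and the D10 libraries held tissue from outside the gonad. The D30 part rests on 2 star read pairs in MT ovaries, whose libraries were shallower than those of WT ovaries. The difference between WT ovaries and testes was not the same at D30 and D120 in any of the 3 genes. At D30 minus D120 it was -4.83 for star, -3.22 for lhcgr and -2.86 for fshr on the log2 scale (adjusted p = 4.8e-07, 0.00122 and 9.4e-07, edgeR), where 36.1% of all genes were called. The D30 testis libraries also had shorter reads than the others. No group held the 4 or more samples needed to look for a sample that stands apart.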

How the results depend on the processing

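Under all the alternatives that gave a value, no called difference of star, lhcgr or fshr changed sign. The star difference between D30 MT and WT ovaries (log2 fold change -3.40) kept its call in 5 of the 13 alternatives that gave a value. It lost the call at an adjusted p of at most 0.01 (-3.40), with limma on log2(FPKM + 1) (-0.98) and with the replicate block (-3.45, adjusted p = 0.0579, edgeR). Of the fits with 1 library left out (-3.80 to -3.00), only the one without MT replicate 2 kept the call of this difference. The star difference was not tested with filterByExpr or a minimum mean FPKM of 1. Limma on log2(FPKM + 1) also took lhcgr in D30 WT ovaries against testes (-0.97), star in D120 WT ovaries against testes (0.95, also with the FPKM minimum) and lhcgr in testes at D120 against D30 (0.38, with and without the FPKM minimum) below the fold threshold. The last was 0.63 with library totals or log2(FPKM + 0.1), 1.05 but not called in the fit of 27 libraries, and 0.85 to 1.28 with 1 library left out. Calls were gained at D10 by star, in WT ovaries against testes in the fit of 27 libraries (1.56), and in MT ovaries against testes with DESeq2 (2.22), that fit (2.27) and, of the fits with 1 library left out (1.81 to 2.54), only the one without D10 testis replicate 1 (2.54). With 1 library left out fshr ranged from -1.46 to -0.71 between D30 ovaries, and its genotype difference at D30 minus D120 from -1.71 to -0.79.

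Same-numbered libraries did not deviate together (correlations -0.092 to 0.218), so the numbers were not used as pairs, and the replicate block changed no other call of the 3 genes.

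The number of genes called was least stable between genotypes and at D10. For MT against WT ovaries it was 92 at D10 (0 to 414 over the alternatives), 401 at D30 (0 to 1078) and 25 at D120 (10 to 119). At D10 it was 27 (0 to 3579) in MT and 2 (0 to 948) in WT ovaries against testes. Other counts that moved by over 1.5 times were 14617 (9362 to 15475) in D30 WT ovaries against testes, 13552 (8823 to 13676) and 13312 (8803 to 13405) in D120 MT and WT ovaries against testes, 4159 (2619 to 5566), 5136 (2261 to 5317) and 9906 (6386 to 10537) at D120 against D30 in MT ovaries, WT ovaries and testes, and 214 (88 to 285) and 506 (265 to 904) for the genotype difference at D30 minus that at D120 and at D10. Depth limits star and lhcgr in D30 ovaries and lhcgr at D10, where a library holds from 0 to a few read pairs, and there a small difference cannot be seen.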

Other observations

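The D120 testis library of replicate 3 held kidney genes at a summed 122 FPKM, against 4.53 and 4.95 FPKM in the other two D120 testis libraries. Its star level was 4.15 FPKM, between the 4.10 FPKM of replicate 2 and the 5.45 FPKM of replicate 1, and its lhcgr and fshr levels (1.49 and 27.2 FPKM) were the lowest of the 3.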
